A study of Mus musculus with 4 samples.

Results

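The tumour necrosis factor (TNF) superfamily ligands and receptors described here are 5 ligand genes (Tnf, Tnfsf10, Tnfsf13b, Tnfsf14 and Tnfsf15) and 5 receptor genes (Tnfrsf1a, Tnfrsf1b, Fas, Tnfrsf11a and Tnfrsf14). They were taken by name, and every probe set annotated to a single gene of the list was used. Of the 10 genes 9 had such probe sets, 16 in all, among 34945 probe sets of 18193 genes. Tnfsf15 had none in the annotation and is not analysed here. The arrays were made from mouse bone marrow cells grown for 5 days with M-CSF, the growth factor that turns marrow cells into macrophages. The 4 groups were wild-type cells left unstimulated, wild-type cells given 100 ng/ml lipopolysaccharide (LPS) for 4 h, and Jmjd3-/- cells (called knockout) in the same 2 states, with 1 array each. Kdm6b is the current symbol of Jmjd3, whose product removes methyl groups from lysine 27 of histone H3, and LPS is the bacterial cell wall component that activates Toll-like receptor 4. Left unstated are the strain and age of the mice, the part of Jmjd3 that was deleted and any pooling of animals.

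TNF superfamily ligands are trimeric proteins, made at the cell surface and in part shed, that signal by bringing receptor chains together. Receptors with a death domain, such as those encoded by Tnfrsf1a and Fas, can recruit caspase-activating adaptors, while others, such as those encoded by Tnfrsf1b, Tnfrsf11a and Tnfrsf14, bind TRAF proteins and activate NF-kB. In macrophages Tnf is a primary target of Toll-like receptor signalling, Tnfsf10 (TRAIL) is known as an interferon-inducible gene, and Tnfrsf11a (RANK) is the receptor through which macrophage precursors become osteoclasts.

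The promoters of the 4 members that rose with LPS are shown because these genes moved together. Each line is the 250 bases before the annotated start in RefSeq (GRCm38.p6), read 5′ to 3′ on the gene's strand. Capitals mark matches, on either strand, to the motifs searched.
Tnf, minus strand, chr17:35202008-35202257: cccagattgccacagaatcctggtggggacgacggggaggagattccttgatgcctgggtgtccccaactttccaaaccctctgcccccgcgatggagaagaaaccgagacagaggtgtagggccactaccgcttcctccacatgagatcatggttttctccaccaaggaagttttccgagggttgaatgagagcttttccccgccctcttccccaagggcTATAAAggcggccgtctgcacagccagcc
Tnfsf10, plus strand, chr3:27316827-27317076: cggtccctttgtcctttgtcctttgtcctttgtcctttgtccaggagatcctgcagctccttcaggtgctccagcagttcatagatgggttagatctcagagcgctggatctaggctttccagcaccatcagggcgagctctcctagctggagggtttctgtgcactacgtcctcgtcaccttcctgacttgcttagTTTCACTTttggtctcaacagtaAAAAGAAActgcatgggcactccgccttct
Tnfrsf1b, minus strand, chr4:145246871-145247120: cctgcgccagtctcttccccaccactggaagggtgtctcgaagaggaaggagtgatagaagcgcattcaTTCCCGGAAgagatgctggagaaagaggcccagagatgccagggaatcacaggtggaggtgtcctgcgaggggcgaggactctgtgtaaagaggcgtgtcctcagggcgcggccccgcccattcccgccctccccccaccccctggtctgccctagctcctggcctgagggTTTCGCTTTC
Fas, plus strand, chr19:34290409-34290658: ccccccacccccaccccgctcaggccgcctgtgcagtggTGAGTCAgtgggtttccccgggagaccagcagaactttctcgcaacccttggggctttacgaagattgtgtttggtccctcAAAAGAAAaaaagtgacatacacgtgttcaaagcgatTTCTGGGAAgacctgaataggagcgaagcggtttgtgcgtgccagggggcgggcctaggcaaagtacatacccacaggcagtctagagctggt

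The motifs were a kappa B decamer (GGG and TTTCC around any 2 bases), an interferon-stimulated response element (ISRE, GAAA, any 2 bases and GAAA again), the interferon regulatory factor core that the ISRE contains (AANNGAAA), a gamma-activated sequence (GAS, TTCNNNGAA), the AP-1 site (TGANTCA) and the TATA box (TATAAA). The Tnf window held the TATA box at 29 to 24 bases before the start, and 12.4% of 32851 promoter windows hold these letters. The Tnfsf10 window held the interferon regulatory factor core at 53 to 46 and again at 30 to 23 bases before the start, against 21.3% of windows with at least 1. In Tnfrsf1b an ISRE match lay directly before the start (2.98% of windows) and a GAS match at 181 to 173 bases before it (7.02%). The Fas window held AP-1 letters at 211 to 205 bases before the start (6.75%), a GAS match and an interferon regulatory factor core. No member's window held the kappa B decamer, which 1.41% of windows hold. Matches also lay before members that were not called: an ISRE in Tnfsf13b and Tnfrsf14, AP-1 letters in Tnfsf13b and Tnfsf14, and a GAS in Tnfrsf1a. A match is a description of letters, and binding was not measured.

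Values are log2 RMA intensities, and a difference of 1 is 2-fold. Probe sets under log2 6, the floor used here, are near the background of the array, and a difference from a level under it rests on a background reading. The array medians lay between 4.15 and 4.24, and 32.1% to 34.5% of probe sets reached log2 6. The brightest Kdm6b probe set differed by -0.51 between the unstimulated knockout and wild-type arrays and by -0.41 between the LPS arrays, while a dimmer probe set, mostly under the floor, differed by 0.64 and 0.85 and the dimmest, under it throughout, by 0.00 and -1.28, so the targeted gene does not check the labels. All 10 macrophage markers examined, Csf1r, Adgre1 and Cd68 among them, were above the floor on the 4 arrays, with a summed level between log2 15.31 and 15.41. Markers of granulocytes and their precursors and of stromal cells stood far higher on the knockout arrays. The log2 summed level of 10 granulocyte markers was 10.24 and 11.68 on the wild-type arrays (unstimulated, LPS) and 15.20 and 15.22 on the knockout arrays, and that of 12 stromal markers 9.43 and 9.71 against 14.88 and 14.63. The 10 T, B and NK markers went the other way, at 8.92 and 9.21 against 7.64 and 7.69, and 7 of them were under the floor on every array, whereas Cd3d, Cd3e and Cd3g passed it on the wild-type arrays. The 10 mast cell, basophil and eosinophil markers summed to 9.70 and 10.35 in wild type and 9.25 and 9.39 in the knockout. In bulk RNA fewer cells of a type and less RNA per cell cannot be told apart.

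**Figure D1:**
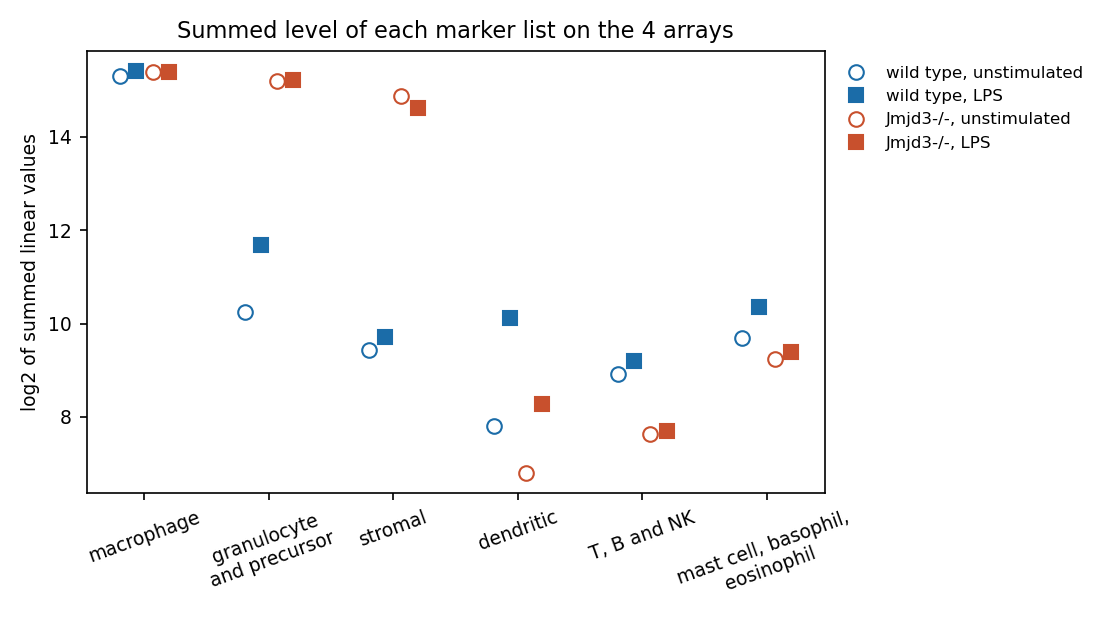
The vertical axis is the log2 of the summed linear values of each marker list, and each point is 1 array (open, unstimulated, and filled, LPS). The macrophage list stayed between 15.31 and 15.41, while the granulocyte list reached 15.20 and 15.22 and the stromal list 14.88 and 14.63 on the knockout arrays.

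LPS raised 2 of the 4 measured member ligands, Tnf and Tnfsf10, and 2 of the 5 receptors, Fas and Tnfrsf1b, and lowered none. All 9 measured members reached the floor on at least 1 array, but 5 of them did not on all 4. The shared LPS effect was tested over the 4 arrays in a model with genotype, with calls made where p after Benjamini-Hochberg adjustment was under 0.05. Across 9385 genes tested 30.1% were called, 11.2% that rose and 18.8% that fell (limma), and the median effect was -0.22, against 0.96 over the 9 members. With 4 arrays and 3 coefficients the residual has 1 degree of freedom, and comes from how far the knockout and wild-type responses part. That residual was moderated by limma with a variance drawn from all genes tested, weighted as 3.84 prior degrees of freedom. The standard errors and p-values therefore rest in large part on the other genes. Without the genotype term only Fas of the 4 remained called (limma, adjusted p = 0.0479), and 267 genes in place of 2823. The dendritic list moved with LPS too: 2 of its 3 tested members, Ccr7 and Btla, rose, and its log2 summed level went from 7.80 to 10.12 in wild type and from 6.79 to 8.28 in the knockout. Its part in these results was not tested.

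**Figure D2:**
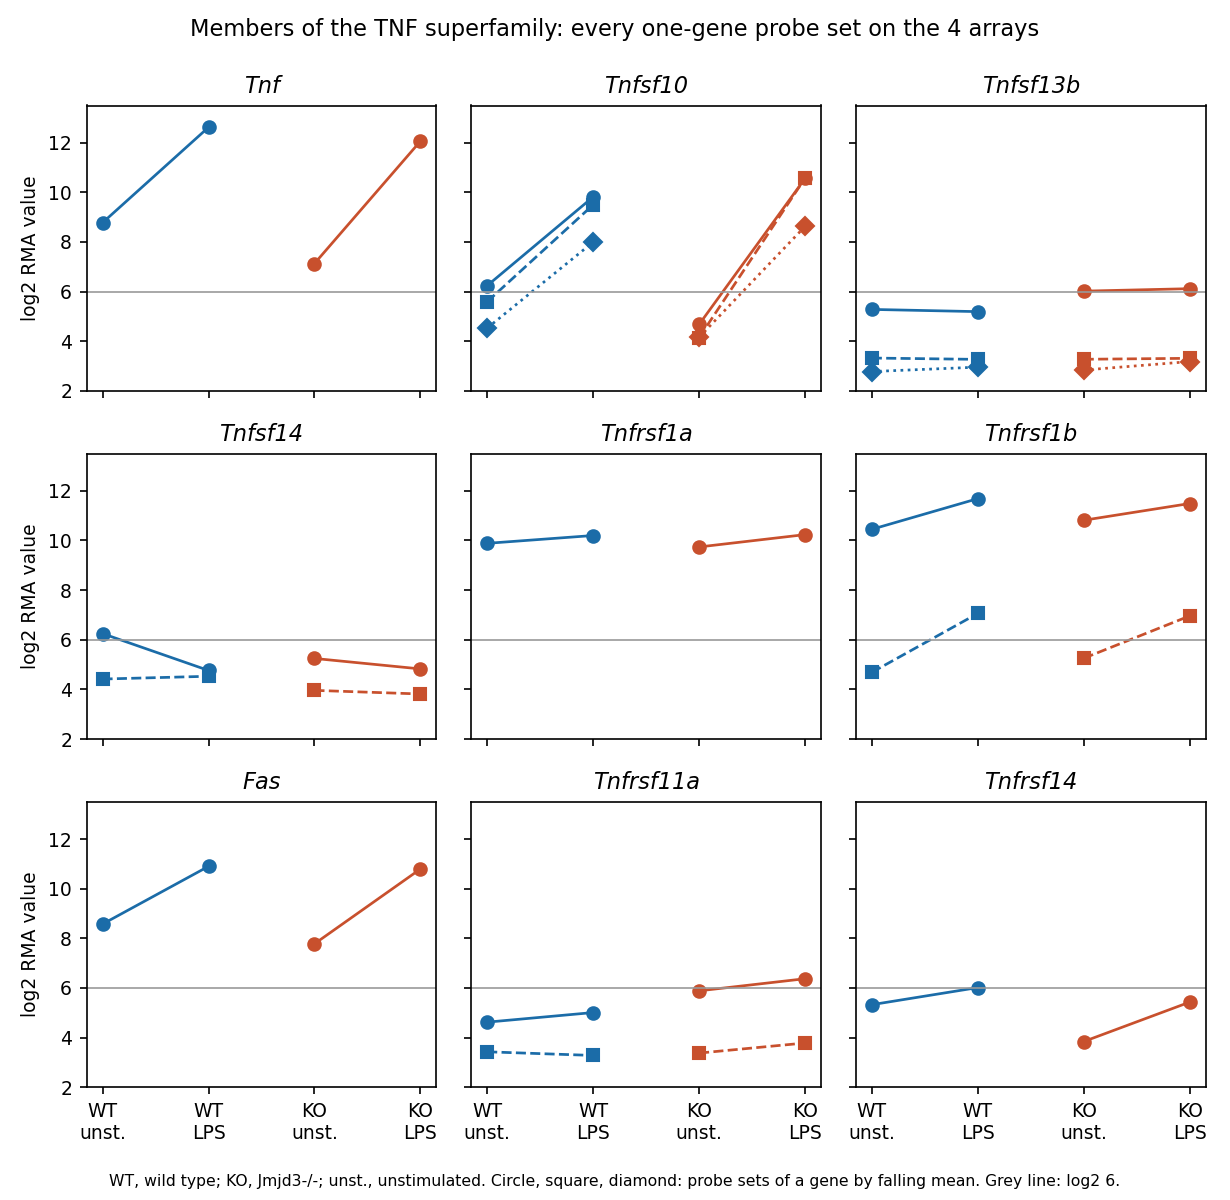
Each panel gives the log2 RMA value of every probe set of a member on the 4 arrays, with wild type in blue, knockout in red, lines joining arrays of a genotype and a grey line at log2 6. Tnf, Tnfsf10, Tnfrsf1b and Fas are higher on both LPS arrays than on both unstimulated arrays, while Tnfsf13b, Tnfsf14, Tnfrsf11a and Tnfrsf14 stay near or under log2 6.

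Tnf encodes the founding ligand of the family, an inflammatory cytokine for which macrophages are a main source. Its probe set read 8.78 without and 12.62 with LPS in wild type, and 7.13 and 12.06 in the knockout. Both LPS arrays lay above both unstimulated ones. The LPS difference was 3.84 in wild type, or 14.4-fold, and 4.93 in the knockout, or 30.5-fold. These were the 65th and 54th highest of 9385 genes. The shared effect was 4.39 with a standard error of 0.30 (limma, adjusted p = 0.0034, higher in both genotypes). The unstimulated knockout array was the lowest of the 4, at 1.64 (3.12-fold) under the unstimulated wild-type array, and with LPS the knockout was 0.56 lower.

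Tnfsf10 encodes TRAIL, a ligand that can trigger apoptosis through death receptors. Its brightest probe set read 6.24 unstimulated and 9.82 with LPS in wild type, and 4.68, under the floor, and 10.56 in the knockout. Another probe set read 5.59, 9.50, 4.15 and 10.58 on the same arrays, and the dimmest 4.53, 7.997, 4.16 and 8.63. All 3 put the LPS arrays above the unstimulated ones and the knockout with LPS highest. The LPS differences in wild type lay between 3.47 and 3.91 over the probe sets, and those in the knockout between 4.47 and 6.43. The shared effect on the brightest was 4.73 with a standard error of 0.56 (limma, adjusted p = 0.00847, higher in both genotypes). With every probe set fitted on its own, where 12.8% of 15527 rose, all 3 rose, by 3.97 to 5.17. All but the brightest passed the floor only with LPS and so entered this fit through the LPS arrays alone. Their count beside that share is a description only. Probe sets of a gene read the same RNA and are not replicates. The sign of the genotype difference turned with LPS on all 3: the knockout minus wild type values were -1.56, -1.45 and -0.37 unstimulated, and 0.75, 1.08 and 0.63 with LPS. Every unstimulated knockout reading was under the floor, and the values -1.45 and -0.37 lie wholly between readings under it. With 64 added to the linear values the unstimulated difference of the brightest was -0.64. The TRAIL death receptor gene Tnfrsf10b and the decoy receptor genes Tnfrsf22 and Tnfrsf23 were under log2 6 on every array.

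Of the TNF receptor genes Tnfrsf1b passed the LPS test and Tnfrsf1a did not. Tnfrsf1a, the gene of the widely expressed death domain receptor TNFR1, read 9.89 and 10.20 in wild type and 9.74 and 10.24 in the knockout, and its LPS effect of 0.41 did not pass (limma, adjusted p = 0.138). The 4 values span 0.50. Tnfrsf1b, the gene of TNFR2, which binds TRAF2 and lacks a death domain, read 10.45 and 11.69 in wild type and 10.82 and 11.49 in the knockout. It rose by 0.96 with a standard error of 0.19 (limma, adjusted p = 0.0243, higher in both genotypes), although without an intensity trend in the variance it did not pass (limma, adjusted p = 0.055). Its dimmer probe set passed the floor only with LPS, at 7.06 and 6.96, against 4.69 and 5.25, and rose by 2.04 (limma over probe sets, adjusted p = 0.0103). Tnfrsf1b was the only member with a less positive LPS difference in the knockout, 0.68 against 1.24, and its dimmer probe set gave 1.71 against 2.37. Whether the effects of the receptor genes differ was not tested.

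Fas, the gene of the death receptor for Fas ligand, read 8.57 and 10.90 in wild type and 7.78 and 10.79 in the knockout. The LPS arrays were both above the unstimulated ones, with the lowest value in unstimulated knockout cells. It rose by 2.67 with a standard error of 0.24 (limma, adjusted p = 0.0052, higher in both genotypes), 5.01-fold in wild type and 8.09-fold in the knockout. The gene of its ligand, Fasl, stayed at 3.73 or less. In the death machinery list 4 of 7 tested genes rose with LPS and none fell, against 11.2% and 18.8% of all genes. They were Cflar (2.16), which encodes the caspase-8 inhibitor c-FLIP, Casp8 itself (1.05), Mlkl (2.61), the effector of necroptosis, and Bid (1.21), which links death receptors to mitochondria. Fadd, the adaptor of Fas, differed by -0.29 and Ripk3, the kinase that activates MLKL, by -0.34, and neither passed. The call of Casp8 was lost with the mean of all probe sets (limma, adjusted p = 0.0517) and without an intensity trend (0.0662), and that of Bid with the mean (0.057). Without the genotype term none of the 4 passed (limma, adjusted p between 0.0584 and 0.112). This list and those below were chosen with earlier results of these data known, so their counts beside all genes are descriptions only.

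Downstream of the receptors, 10 of 21 tested adaptor and ubiquitin enzyme genes rose with LPS and none fell, against 11.2% and 18.8% of all genes. The list's median effect was 0.70, against -0.22 over all genes. Traf1, an adaptor of TNFR2, rose by 4.87 and Tnfaip3, the gene of the ubiquitin-editing NF-kB inhibitor A20, by 2.96. Rnf31, the catalytic subunit of the linear ubiquitin ligase, rose by 2.06, Tnip1, an A20 partner, by 1.84, and Traf2 by 1.66. The inhibitor of apoptosis genes Birc3 and Birc2, which encode ubiquitin ligases of the TNF receptor complex, rose by 1.43 and 1.36, and Tank, Traf5 and Tab2 by 1.48, 1.31 and 0.70. Tradd, the first adaptor of TNFR1, differed by -0.32 and did not pass, as did Traf6 (0.11), Map3k7 (-0.01) and Cyld (0.31). Without an intensity trend the call of Tab2 was lost (limma, adjusted p = 0.0783), and with the mean of all probe sets that of Traf5 (0.0505). Fitted without genotype, Rnf31, Tnip1 and Traf1 passed of these 10.

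Among 13 tested genes that act on TNF shedding and on cytokine mRNA, 3 rose and 3 fell with LPS, against 11.2% and 18.8% of all genes, so the count that fell is near the background. Rhbdf2 (iRhom2), which brings the TNF-shedding protease ADAM17 to the surface, rose by 2.15, while Adam17 itself read between 11.82 and 12.05 on the 4 arrays (effect 0.16, limma, adjusted p = 0.312). Adam10, a related protease gene, fell by 0.68, a call lost without an intensity trend (limma, adjusted p = 0.0781). Zfp36, whose product tristetraprolin binds AU-rich elements of Tnf mRNA and speeds its decay, rose by 1.47, and Zc3h12a, the gene of the ribonuclease Regnase-1, by 2.24. The tristetraprolin paralogues Zfp36l1 and Zfp36l2 fell by 1.57 and 2.02. Without the genotype term none of these 6 genes passed (limma, adjusted p between 0.0525 and 0.0873).

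Tnfsf14 (LIGHT) and its receptor gene Tnfrsf14 (HVEM) lay near the floor. The brighter Tnfsf14 probe set read 6.25 in unstimulated wild-type cells and was under the floor elsewhere, at 4.76 with LPS and at 5.25 and 4.83 in the knockout. Its LPS effect of -0.95 did not pass (limma, adjusted p = 0.154), and the other probe set never exceeded 4.53. Tnfrsf14 read 5.32 and 6.01 in wild type and 3.84 and 5.43 in the knockout, with an LPS effect of 1.14 that did not pass (limma, adjusted p = 0.107). Only the wild-type LPS array reached the floor, by 0.01. The other LIGHT receptor gene, Ltbr, which encodes the lymphotoxin beta receptor, lay between 8.12 and 8.49 and passed neither test. Btla, the gene of an inhibitory receptor that HVEM engages, rose with LPS by 1.98 (limma, adjusted p = 0.0211). It read 5.00 and 7.39 in wild type and 4.204 and 5.764 in the knockout, so it entered the test through the wild-type LPS array alone, and without the genotype term it did not pass (limma, adjusted p = 0.198).

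Tnfsf13b encodes BAFF, a survival factor for B cells. Its brightest probe set read 5.28 and 5.19 in wild type and 6.02 and 6.12 in the knockout, and the remaining probe sets were at 3.32 or less. The LPS effect was 0.00 with a standard error of 0.31 (limma, adjusted p = 0.992). Of its receptor genes, Tnfrsf13b (TACI) read 8.08 and 7.93 in wild type and 8.45 and 8.73 in the knockout and passed neither test, Tnfrsf13c (BAFF receptor) was past the floor only with LPS in the knockout (6.35), and Tnfrsf17 was under it throughout.

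Beyond the members, 10 more ligand and 22 more receptor genes of the superfamily were measured, and 18 of these 32 stayed under log2 6 on every array. With the members, 5 of 9 tested ligands rose with LPS, and 3 of 14 tested receptors rose and 1 fell, against 11.2% and 18.8% of all genes. The other ligands that rose encode costimulators of T cells: Tnfsf8 (CD30 ligand) by 3.08, Tnfsf9 (4-1BB ligand) by 2.90 and Tnfsf4 (OX40 ligand) by 2.81 (limma, adjusted p = 0.0156, 0.00795 and 0.0206). Tnfsf4 was under the floor on both unstimulated arrays. Tnfsf8 was above it on the wild-type LPS array alone (4.07 and 7.88 in wild type, 3.19 and 5.55 in the knockout), so its knockout difference lies between readings under the floor. Among the receptors Cd40, through which T cells activate macrophages, rose by 5.15 (limma, adjusted p = 0.00177), and Tnfrsf21 (death receptor 6) fell by 1.64 (0.00949). Without the genotype term Cd40 passed, and Tnfsf8, Tnfsf9, Tnfsf4 and Tnfrsf21 did not (limma, adjusted p = 0.163, 0.0525, 0.0967 and 0.0808). Lta (1.43) and Tnfsf11 (0.65) did not pass.

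**Figure D3:**
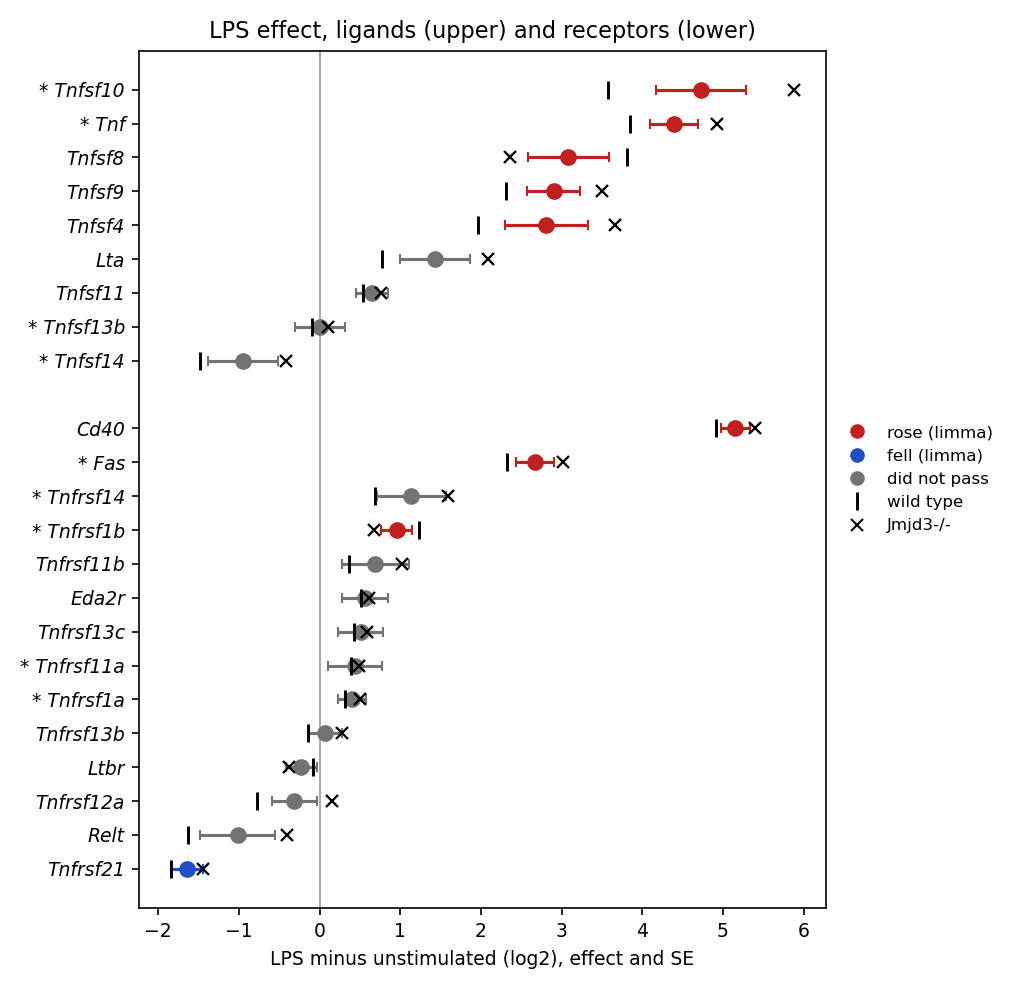
The horizontal axis is the LPS minus unstimulated difference in log2 units for the 9 ligands and 14 receptors past log2 6, with members starred. Points with bars are the limma effect and its standard error, coloured by call, and the bar and cross marks are the single differences in wild type and knockout. Tnf, Tnfsf10, Fas and Tnfrsf1b are the starred genes that rose, and Tnfrsf21 is the receptor gene that fell.

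Counted on single arrays, with no test, 4 of 7 members past the floor were 2-fold or more higher with LPS in wild type (background 9.86%) and 1 was lower (14.3%). In the knockout 3 of 7 were higher (11%) and none lower (15.5%). The counts parted at Tnfrsf1b, 2.36-fold in wild type and 1.6-fold in the knockout, and at Tnfsf14. The Tnfsf14 difference was -1.49 in wild type and -0.42, between readings under the floor, in the knockout. The dimmer Tnfrsf1b probe set was past 2-fold in both genotypes (5.18 and 3.26). With the mean of probe sets 4 members reached 2-fold in each genotype.

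No member passed the test of a genotype effect shared by both states. Of 9385 genes 9.52% were called, 6.39% that rose and 3.12% that fell, in the knockout (limma), with a median of 0.05, against -0.41 over the 9 members, and at an unadjusted p below 0.05 there were 3 members, Tnf, Tnfsf13b and Tnfrsf11a, against 24.4% of all genes. Tnf had an effect of -1.10 with a standard error of 0.30 (limma, adjusted p = 0.1, lower in both states), and Tnfsf13b one of 0.83 (limma, adjusted p = 0.191, higher in both). Tnfrsf14 differed by -1.04 and Fas by -0.45, each lower in both states, and neither passed (limma, adjusted p = 0.233 and 0.332). Tnfrsf1a and Tnfrsf1b differed by -0.05 and 0.08 (limma, adjusted p = 0.881 and 0.822). Granulocyte and stromal markers moved with genotype, with 9 of 10 and 10 of 11 tested genes higher in the knockout, and 3 of 3 T, B and NK markers lower. Only 2 granulocyte and 3 stromal markers were past the floor on all 4 arrays, and Cd3d, Cd3e and Cd3g passed it in wild type alone. Markers that entered through the genotype where they are high favour that direction, so these counts are descriptions only. Of 3 tested dendritic markers Ccr7 fell, by 2.69 (limma, adjusted p = 0.00655). Of 10 macrophage markers Itgam fell by 1.04 and Fcgr1 rose by 0.76 (limma, adjusted p = 0.0385 and 0.0325). Without the LPS term Ccr7, Itgam and Fcgr1 did not pass, and nor did Cd3d, Cd3e, Cd3g, Camp, Ctsg and Pdgfrb. The Itgam call was also lost with no floor (limma, adjusted p = 0.061) and without an intensity trend (0.0534). That of Fcgr1 was lost with the mean of its probe sets (limma, adjusted p = 0.12) and without an intensity trend (0.114). Of 6 tested mast cell, basophil and eosinophil markers 4 fell and 1, Prg2, rose, and all of these calls were lost without the LPS term. Fcer1a, Gata2 and Mcpt8 passed the floor only on wild-type arrays, and Prg2 only on knockout arrays. The part of all these cell type markers in the genotype results of the TNF family was not tested.

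Single genotype differences, also untested, showed 3 of 7 members lower by at least 2-fold in the knockout without LPS (background 5.74%) and none higher (9.54%). These were Tnf, Tnfsf10 and, at the threshold, Tnfsf14 (-1.001). Only Tnf was above the floor on both arrays. Tnfsf10 and Tnfsf14 entered the count through the wild-type array alone (6.24 and 6.25, against 4.68 and 5.25 in the knockout). Tnfrsf14 differed by -1.49 and Tnfrsf11a by 1.26 between readings under the floor. With LPS none of 8 was lower (5.65%) and 1, Tnfrsf11a, was higher (9.76%). Tnfrsf11a entered that count through the knockout array alone (6.37, against 5.01 in wild type).

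Genotype differences in the RANK axis lay in the ligand and the decoy receptor, while Tnfrsf11a itself fell short of the threshold. RANK ligand, from Tnfsf11, drives osteoclast formation, and osteoprotegerin, from Tnfrsf11b, is its soluble decoy. The brighter Tnfrsf11a probe set read 4.62 and 5.01 in wild type and 5.88 and 6.37 in the knockout, so both knockout arrays were above both wild-type ones but only 1 passed the floor. Its effect of 1.31 with a standard error of 0.33 did not pass (limma, adjusted p = 0.0835, higher in both states). It did pass with a floor of log2 5 (limma, adjusted p = 0.0493), with no floor (0.0484) and without an intensity trend (0.0325). The dimmer probe set stayed between 3.28 and 3.78.

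Tnfsf11 read 7.64 and 8.17 in wild type and 6.02 and 6.78 in the knockout, and fell there by 1.51 with a standard error of 0.20 (limma, adjusted p = 0.0162, lower in both states). With a floor of log2 8 it did not pass (limma, adjusted p = 0.0527). Tnfrsf11b read 2.74 and 3.11 in wild type, under the floor, and 6.72 and 7.74 in the knockout, and rose by 4.30 (limma, adjusted p = 0.00672), a call lost with the mean of its probe sets (0.0573). Osteoprotegerin is known as a product of stromal cells and osteoblasts. On these arrays only 3 stromal markers were past the floor throughout. Of 11 tested ones 10 rose in the knockout, against 6.39% of all genes. Among them Col1a1 read 5.84 and 6.30 in wild type against 12.35 and 11.87. Whether stromal cells have a part in the Tnfrsf11b difference was not tested. Of 8 tested osteoclast genes 2 fell and 1 rose in the knockout, against 3.12% and 6.39% of all genes. Dcstamp, needed for the fusion of osteoclast precursors, fell by 3.11 and Atp6v0d2, a proton pump subunit gene, by 1.97. Itgb3, the integrin beta 3 gene, rose by 3.08 (limma, adjusted p = 0.0021, 0.00554 and 0.00569 for these genes). It read 4.56 and 4.84 in wild type, under the floor, and 7.94 and 7.61 in the knockout. Itgb3 thus entered the test through the knockout arrays alone, and its difference rests on background readings. Without the LPS term Dcstamp passed, and Atp6v0d2 and Itgb3 did not (limma, adjusted p = 0.528 and 0.0632). With LPS, Atp6v0d2 fell by 1.21 and Nfatc1 by 1.11, a call lost for Nfatc1 with the mean of its probe sets (limma, adjusted p = 0.127) and for both without the genotype term (0.474 and 0.25). The osteoclast transcription factor gene Nfatc1 differed by 0.94 and Acp5 by -0.85, and neither passed (limma, adjusted p = 0.0717 and 0.0582).

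Of the other family genes Tnfrsf12a, which encodes the TWEAK receptor, rose in the knockout by 2.58 and Eda2r, the ectodysplasin A2 receptor gene, by 2.85, and Lta (lymphotoxin alpha) fell by 2.47 (limma, adjusted p = 0.00916, 0.00733 and 0.0334). Lta read 6.46 and 7.23 in wild type and 3.33 and 5.42 in the knockout. T cell markers were lower on the same arrays (Cd3e 6.98 and 7.49 against 3.65 and 4.69), and their part in the Lta difference was not tested. In all, 2 of 9 tested ligands fell and 3 of 14 receptors rose in the knockout, against 3.12% and 6.39% of all genes. Eda2r read 4.11 and 4.62 in wild type and 6.92 and 7.53 in the knockout. Like Tnfrsf11b it entered the test through the knockout arrays alone, and Lta entered through the wild-type arrays alone. The differences of these genes thus rest on readings under the floor. Without the LPS term none of the 5 called ligand and receptor genes passed, with 111 genes called in place of 893. Downstream, Traf5 fell by 1.93, a call lost with the mean of its probe sets (limma, adjusted p = 0.0667), none of 7 death machinery genes passed (limma, 2 at an unadjusted p below 0.05, against 24.4% of all genes), and Timp3, whose product inhibits ADAM17, rose by 2.98. Without the LPS term neither Traf5 nor Timp3 passed (limma, adjusted p = 0.599 and 0.0769).

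**Figure D4:**
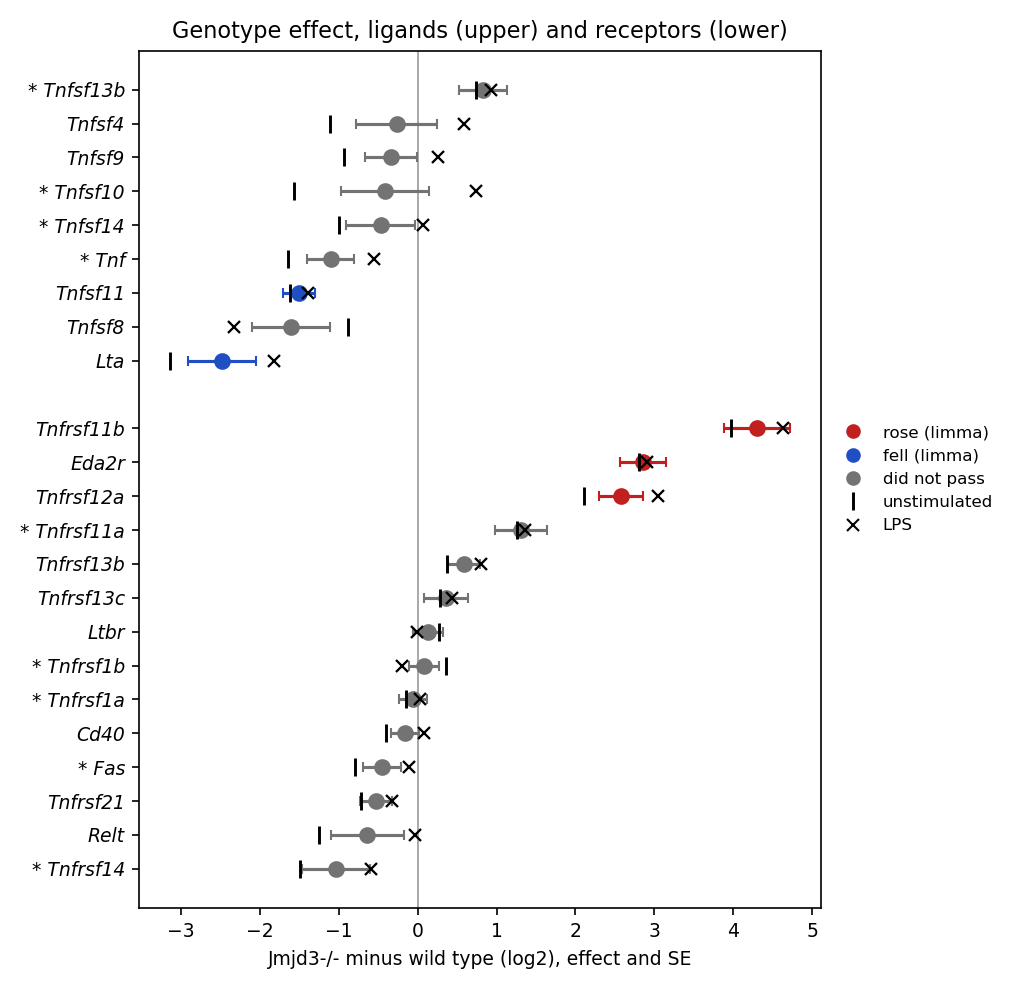
The horizontal axis is the knockout minus wild type difference in log2 units for the same 9 ligands and 14 receptors, with members starred. Points with bars are the limma effect and its standard error, and the bar and cross marks are the single differences without and with LPS. The starred genes are all grey, while Tnfrsf11b, Eda2r and Tnfrsf12a rose and Tnfsf11 and Lta fell.

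The difference between the LPS responses has no test with 1 array a group. It was above 0, a more positive LPS difference in the knockout, for 8 of the 9 members and for 20 of the 23 family genes past the floor, the exceptions being Tnfrsf1b, Tnfsf8 and Ltbr. The same held for 47.6% of all 9385 genes and for 65% of the 1054 that rose with LPS. Of the 8 members, Tnfsf13b (0.19), Tnfsf14, Tnfrsf11a (0.10) and Tnfrsf14 reached the floor on only 1 or 2 arrays, and Tnfrsf1a differed by 0.18. By 2-fold or more it was 3 members, Tnfsf10 (2.31), Tnf (1.09) and Tnfsf14 (1.06), against 5.19% of genes, and none was lower by as much (4.73%). The Tnfsf14 value is a smaller fall between knockout readings under the floor (5.25 and 4.83). The knockout response of Tnfsf10 starts under it (4.68). With 64 added to the linear values 1 member stayed at 2-fold. Tnfsf10 ranked 69th from the highest of 9385 genes. For Tnfsf10 the added response came from both ends, a lower unstimulated and a higher LPS value, whereas for Tnf and Fas the knockout array was lower in both states, by 1.64 and 0.56 and by 0.79 and 0.11. All of these values rest on the same 4 arrays, so the response difference and the genotype differences are not independent of each other.

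**Figure D5:**
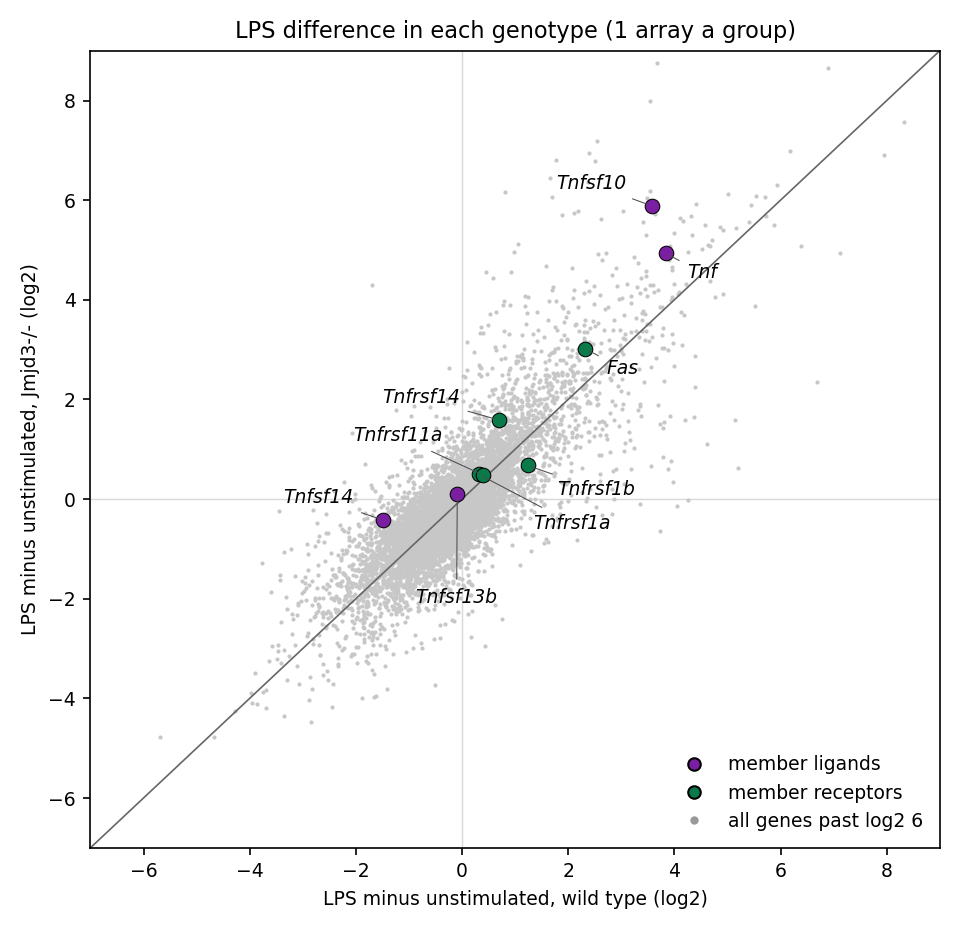
Each grey point is a gene past log2 6, with its LPS minus unstimulated log2 difference in wild type (horizontal) and in the knockout (vertical), and the diagonal marks equal differences. Tnfsf10 lies at 3.58 and 5.89 and Tnf at 3.84 and 4.93, above the diagonal, and Tnfrsf1b at 1.24 and 0.68 lies below it.

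Genes with the pattern most like each member were found by the root mean square distance, in log2 units, between profiles over the 4 arrays after each gene's mean was taken off. For Tnf they were Slfn1 (0.07) and the interferon-inducible chemokine gene Cxcl10 (0.28), which read 10.24 and 13.64 in wild type and 8.18 and 13.74 in the knockout. For Tnfsf10 they were Cd69 (0.21), an early activation antigen gene, and Traf1 (0.24). Fas was nearest to C130026I21Rik (0.05) and Mndal (0.06), and Tnfrsf1b to Rftn1 (0.03) and Tlr7 (0.03). Tnfrsf1a, which varied least, had Ube4a (0.01) and Mapk6 (0.02) beside it. Near the floor, Tnfsf13b was closest to Msra and Mta3 (0.04 each), Tnfsf14 to 4930404N11Rik and St18 (0.07 each), Tnfrsf11a to Ogfrl1 and Foxp1 (0.05 each), and Tnfrsf14 to Gpd2 (0.05) and Dpys (0.06). With 4 arrays and 9385 genes a small distance is easily met, and these are descriptions only.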

How the data were processed

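The authors deposited 1 log2 value per probe set and array, summarised by RMA per the submitters' processing notes, with version and background model not given in the sources used here. Total RNA from Trizol extraction was labelled with the NuGEN Ovation system, per the labels' protocols. Nothing says that samples came from separate animals, and no group has a replicate. The p-values rest on how far the knockout and wild-type responses part, moderated by other genes, and measure no spread between replicates or animals. Of 45101 probe sets 34945 named 1 gene and 34741 of these matched RefSeq (GRCm38.p6). Probe sets with 932 several-gene, 9160 unnamed and 64 control entries were left out. Where a gene had several probe sets the brightest on average stood for it, and 9385 genes at log2 6 or more on an array were fitted with limma 3.58.1 (R 4.3.3), with terms for LPS and genotype, intensity trend and Benjamini-Hochberg adjustment. Data were also simulated from the fitted prior on 9385 genes, with 50 genes changed at each size and no difference between the responses. There the LPS test recovered 14% of genes changed by log2 1 and 74% at log2 2 with 13 false calls, and the genotype test 10% and 86% with 19. Far fewer genes were changed there than the 30.1% called for LPS here, so these shares do not carry over to the data. Members, lists and motifs were chosen with earlier results of these data known. All members were named, with list genes that passed a test or differed most, and the 2 nearest patterns a member. List genes outside this rule were chosen after their values were seen. The alternatives are in the closing section, and the number of arrays limits the precision. Python 3.11.15 with numpy 2.4.6 and pandas 2.3.3 was used.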

Additional observations from a re-analysis of the deposited data

Results flagged for a closer look

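For 5 members the single arrays moved in opposite directions under the same contrast, and none of these differences was tested. Tnfsf10 differed between knockout and wild type by -1.56 unstimulated and by 0.75 with LPS, the widest of these gaps. Tnfsf14 gave -1.001 and 0.062, Tnfrsf1b 0.36 and -0.20, and Tnfrsf1a -0.146 and 0.036 in the same comparisons. With LPS, Tnfsf13b differed by -0.089 in wild type and by 0.099 in the knockout.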

How the results depend on the processing

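Under 9 alternatives the LPS call of Fas was kept in every one, those of Tnf and Tnfsf10 in 8 (lost without the genotype term, limma, adjusted p = 0.0564 and 0.0525), and that of Tnfrsf1b in 7. Without the genotype term 1 member and 267 genes passed for LPS, with 68.5% of calls higher. For genotype 1 member, Tnfrsf11a, passed with a floor of log2 5, with no floor and without an intensity trend, against 0 as reported. The genotype count of 893 genes became 461 with a floor of log2 8, 530 with the mean of all probe sets and 111 without the LPS term (90.1% higher). The Tnfsf10 genotype effect of -0.41 turned to 0.033 with 64 added to the linear values. Members at 2-fold between unstimulated genotypes, 3 as reported, were 5 at 1.5-fold and at a floor of log2 5, and 1 with 64 added, with a floor of log2 8 and with the mean of probe sets. Between LPS arrays the 1 became 4 at 1.5-fold and 0 with those last 3 settings. For the difference of LPS responses the 3 became 5 at 1.5-fold and 1 with 64 added. No array could be left out, since 3 arrays leave no residual degree of freedom. No paired analysis was possible because each group has 1 array, all with replicate number 1, so that groups share fewer than 2 numbers. The additive fit already compares LPS within genotype. Low signal limits Tnfsf13b, Tnfsf14, Tnfrsf11a and Tnfrsf14.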
